A study of Saccharomyces cerevisiae with 32 samples.

Results

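The cytosolic ribosomal protein genes of budding yeast (Saccharomyces cerevisiae) were examined in ribosome profiling and mRNA sequencing data from strains with altered DED1 or DBP1. Members were the reading frames whose identifier maps to a symbol of RPL or RPS with a number and an optional A or B, or to RPP0, RPP1A, RPP1B, RPP2A or RPP2B. The rule found 135 of the 5446 reading frames in the 6 deposited tables. Of these, 80 encode proteins of the large subunit, counting 5 of the P stalk, and 55 encode proteins of the small subunit. Both copies were present for 58 duplicated pairs, 18 members carry no A or B, and RPS10A stood without its other copy. RPL29 and RPS10B were not analysed here.

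Ribosomal proteins assemble with ribosomal RNA into the small subunit, which reads the mRNA, and the large subunit, which joins the amino acids. Most yeast ribosomal proteins are encoded by a duplicated pair of genes, the A and B copies, whose products are often identical or nearly so. Their mRNAs are abundant and efficiently translated, and their transcription falls when growth is impaired. Ded1 is a DEAD-box RNA helicase that promotes scanning of the mRNA leader by the initiating ribosome, and Dbp1 is its paralog.

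The strains at 15 °C were the cold-sensitive mutant ded1-cs with hcDBP1 (DBP1 in high copy), ded1-cs, and its wild type DED1-CS. The strains shifted to 37 °C in a second experiment were the temperature-sensitive mutant ded1-ts with hcDBP1, ded1-ts, and its wild type DED1-TS. Another experiment at 37 °C held the ded1-ts dbp1 deletion double mutant and the dbp1 deletion, each set in its table against a WT whose level columns match none of the samples used here. All cultures received 100 µg/ml cycloheximide for 2 min before harvest. Per the labels, each strain had 2 libraries of ribosome footprints and 2 of mRNA, 32 libraries in all. The deposited tables hold 1 pooled value per strain and assay, so no replicate spread, standard deviation or test could be computed, and every difference below describes these pooled values. Depth in reads is unknown, and the level columns sum to between 5651054 and 48359134 normalised units.

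The values were log2 levels of footprints and mRNA and the authors' log2 changes, with the change in translational efficiency (TE) equal to the footprint change minus the mRNA change. Calls were made at a 2-fold change, which is 1 on the log2 scale, and needed a level averaging 50 or more in footprints and in mRNA alike. All 135 members passed that minimum in all 9 comparisons. Comparisons of an hcDBP1 strain with its ded1 mutant, and of the double mutant with the dbp1 deletion, are differences between a pair of deposited changes. The strain labels were checked on DBP1 itself. Its mRNA change in the authors' deposited tables was 5.85 in ded1-cs hcDBP1, 6.89 in ded1-ts hcDBP1, -6.21 in the dbp1 deletion and -9.45 in the double mutant. The mRNA change of DED1 in the authors' deposited tables was 1.37 in ded1-cs, -1.17 in ded1-ts, -2.63 in the dbp1 deletion and -0.95 in the double mutant.

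At 15 °C the ribosomal protein genes lay above the wild type in footprints and TE in ded1-cs on the authors' scale, while their mRNA stayed close to it. The median member changed by 0.63 in footprints, -0.10 in mRNA and 0.67 in TE in ded1-cs against DED1-CS. The median TE change over all 5076 analysed genes was 0.10. The TE change was above 0 for 123 of the 135 members. It passed 2-fold upward for 20 members and downward for 0, against 16.4% of all genes upward and 21.9% downward. The share of members called higher, 20 of 135, was therefore near that of all genes. Footprints were at least 2-fold higher for 16 members, with 14.0% of all genes, and no member passed in mRNA, where 1.22% of all genes did upward and 0.887% downward. These medians and counts depend on how the authors scaled the columns. With all columns brought to equal totals the median TE change in ded1-cs was 0.070 for the members and -0.50 for all genes. In TE 2 members, RPL41A and RPL41B, then passed upward, where 1.79% of all genes did, and RPP2B, RPS27B, RPL2A and RPL37B passed downward, where 35.2% did. In footprints RPL41A and RPL41B then passed upward and 7 members downward, against 3.09% and 32.8% of all genes.

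With hcDBP1 in ded1-cs, the members remained above DED1-CS in footprints, with a median change of 0.65, and their TE change had a median of 0.53. In this strain 5 members were at least 2-fold higher in TE and 0 lower, against 9.21% and 13.1% of all genes. Footprints passed upward for 15 members, where 5.8% of all genes did, and mRNA passed downward for RPL41A alone, where 0.868% did. With equal column totals the median TE change of the members was 0.11. RPL41A and RPL41B then passed upward in footprints and in TE, where 1.1% and 1.7% of all genes did. No member then passed downward in either, where 20.5% and 24.3% of all genes did. None passed in mRNA, where 0.591% did upward and 0.769% downward. Set directly against ded1-cs, the hcDBP1 strain had a median member change of 0.02 in footprints, 0.16 in mRNA and -0.14 in TE. No member passed 2-fold in TE in that comparison, against 2.13% of all genes upward and 0.236% downward. The small mRNA difference had a common direction, above 0 for 133 of 135 members. Under equal column totals the medians of this comparison were 0.13 in footprints and 0.035 in TE, so the TE median changed sign. RPL41A and RPL41B then passed upward in TE, where 4.14% of all genes did.

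At 37 °C the ribosomal protein mRNAs were lower as a class in ded1-ts while their footprints held. The median member changed by -0.57 in mRNA, -0.02 in footprints and 0.56 in TE, and mRNA was above the wild type for 4 of 135 members. The TE change of the median gene was 0.08, and 14.1% of all genes lay above the median member. In TE 8 members passed 2-fold upward and 1, RPL22B, downward, against 2.85% and 6.38% of all genes. The 8 were RPL41A, RPL41B, RPS30A, RPS30B, RPL35A, RPL35B, RPL42B and RPS25A. In footprints RPL41A and RPL41B passed upward and RPL22B downward, against 6.68% and 6.64%. The copies of RPL41 and of RPL35 are uncertain as separate measurements, so these counts may hold the same signal more than once. In mRNA RPL15A and RPL3 passed downward, where 3.2% of all genes did. Rpl3 and Rpl15 are both proteins of the large subunit. The mRNA change in the authors' deposited table was -1.07 for RPL15A and -1.02 for RPL3, yet their footprint changes were -0.29 and -0.34. With equal column totals the median mRNA change was -0.37 and the median footprint change was 0.11, so mRNA and footprints stayed apart under that scaling. RPL15A and RPL3 no longer passed in mRNA there, where 1.84% of all genes passed downward.

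With hcDBP1 in ded1-ts, the median member changed by -0.44 in mRNA, 0.09 in footprints and 0.55 in TE against DED1-TS. Here 4 members, RPL41A, RPL41B, RPS30A and RPS30B, were at least 2-fold higher in TE and 0 lower, against 0.883% and 2.98% of all genes. Footprints passed upward for RPL41A and RPL41B and downward for RPL22B, against 1.86% and 1.06%. The mRNA of RPL41A and RPL41B passed downward, where 0.595% did. The RPL41 copies are uncertain as separate measurements. With equal column totals the median TE change was 0.33. In TE RPL41A and RPL41B then passed upward and RPL22B downward, against 0.365% and 5.68% of all genes. None then passed in mRNA, where 3.59% of all genes did upward and 0.422% downward. Against ded1-ts itself, the hcDBP1 strain showed median changes of 0.11 in footprints, 0.13 in mRNA and -0.01 in TE. RPL22B was the 1 member past 2-fold there, upward in footprints and in TE, where 2.32% and 1.29% of all genes passed, and 0 members passed downward in TE, where 0.307% did. Under equal column totals the footprint median was -0.074 and the TE median was -0.16. RPL22B then passed upward in TE but not in footprints, where 0.825% and 1.63% of all genes did.

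**Figure D1:**
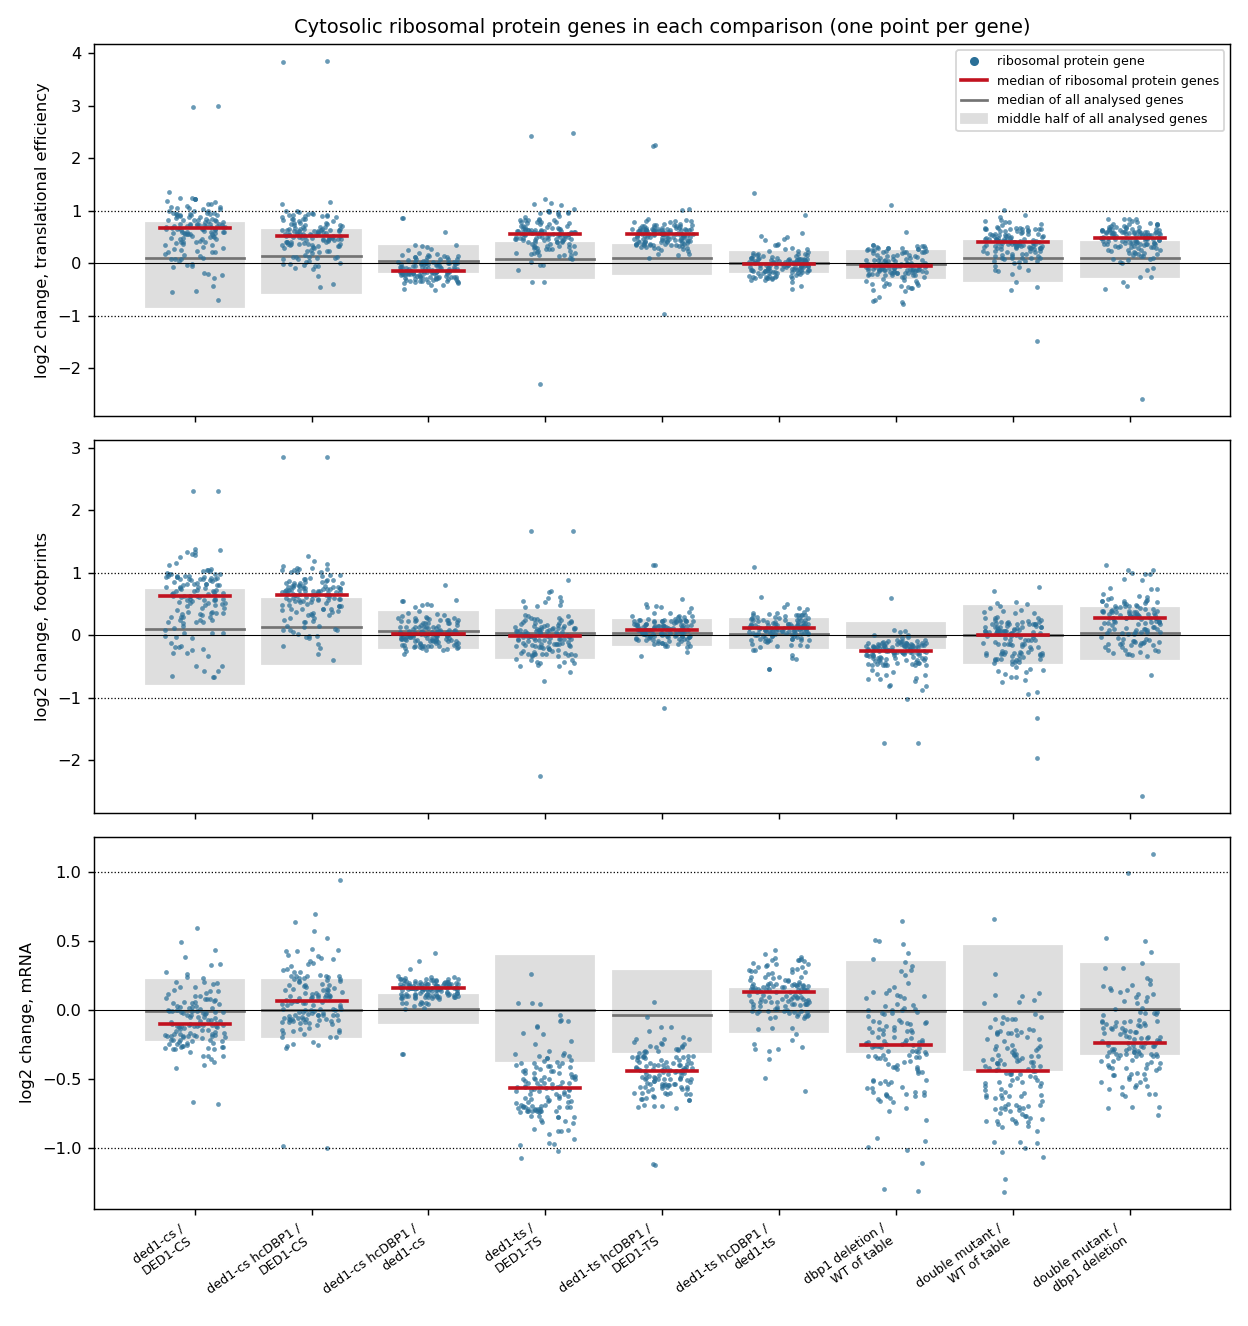
Log2 change in TE, footprints and mRNA (vertical axes) of the 135 ribosomal protein genes in each of the 9 comparisons (horizontal axis), 1 point per gene, with the members' median in red and the median and interquartile band of all analysed genes in grey. The mRNA points of ded1-ts sit almost all below 0 with a median of -0.57, while the footprint points of the same strain centre on -0.02.

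In the dbp1 deletion the members were lower in both assays by similar amounts. Their median change was -0.26 in footprints, -0.25 in mRNA and -0.06 in TE. RPL41A, RPL41B and RPS12 passed 2-fold downward in footprints, where 0.624% of all genes did. Those 3 genes and RPP2B passed downward in mRNA, where 1.31% did. RPL22B alone passed upward in TE, where 0.382% of all genes did, and no member passed downward, where 1.83% did.

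The double mutant resembled ded1-ts in its class medians when set against the WT of its table: -0.44 in mRNA, 0.00 in footprints and 0.40 in TE. RPL22B and RPS12 passed 2-fold downward in footprints, where 8.95% of all genes did. RPL18B, RPS22A, RPL9A and RPL3 passed downward in mRNA, where 4.95% did. In TE RPL18B passed upward and RPL22B downward, against 2.6% and 10.3% of all genes. Against the dbp1 deletion the double mutant had median member changes of 0.27 in footprints, -0.24 in mRNA and 0.48 in TE, with a TE change above 0 for 126 members. No member passed upward in TE and RPL22B passed downward, against 2.19% and 8.27% of all genes. RPS28A, RPL41A and RPL41B passed upward and RPL22B downward in footprints, against 6.78% and 8.55%, and RPL41B passed upward in mRNA, where 3.47% did. Under equal column totals the median TE change was 0.29. RPS28A was then the 1 member past 2-fold upward in footprints, where 5.24% of all genes passed. RPL41A joined RPL41B upward in mRNA, where 4.52% passed.

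The footprint changes of single members in the double mutant against the dbp1 deletion followed those of ded1-ts against DED1-TS, which uses other strains and libraries. Over the 135 members Pearson's r stood at 0.91 for footprints with a Spearman's rho of 0.92. The pair of coefficients was 0.50 and 0.53 for mRNA and 0.59 and 0.51 for TE. With RPL41A, RPL41B and RPL22B left out it was 0.67 and 0.58 for mRNA and 0.62 and 0.56 for TE. For ded1-ts at 37 °C and ded1-cs at 15 °C, r was 0.55 and rho 0.46 in TE. Without RPL41A, RPL41B and RPL22B these were 0.39 and 0.43. The same pair of comparisons had r of 0.38 in footprints and 0.51 in mRNA. For the double mutant against the dbp1 deletion and ded1-cs against DED1-CS, r was 0.21 in footprints, -0.02 in mRNA and 0.08 in TE. The matching rho was 0.22, 0.15 and 0.20. Without RPL41A, RPL41B and RPL22B r was 0.20 in footprints, 0.20 in mRNA and 0.22 in TE. These correlations run across genes, which are not independent replicates.

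**Figure D2:**
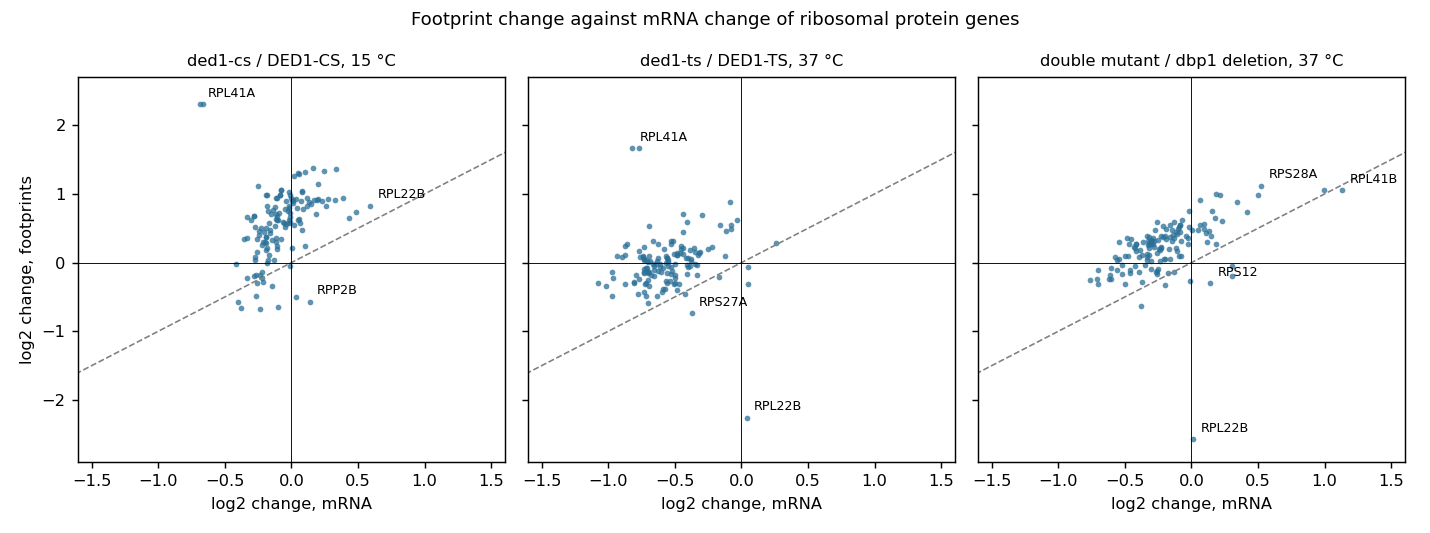
Log2 change in mRNA (horizontal axis) against log2 change in footprints (vertical axis) of the ribosomal protein genes in 3 comparisons, 1 point per gene, with a dashed line where the changes are equal. Most points lie above the line in all panels, and RPL22B lies far below it in ded1-ts, at -2.26 in footprints and 0.04 in mRNA.

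The share of all summed signal that fell on ribosomal protein genes does not depend on the scaling of a column. At 15 °C the members held 17.4% of the footprint level in ded1-cs hcDBP1, 15.9% in ded1-cs and 15.4% in DED1-CS. Their mRNA shares were 18.3% in ded1-cs hcDBP1, 17.3% in ded1-cs and 17.3% in DED1-CS. At 37 °C they held 15.9% of the footprint level in ded1-ts hcDBP1, 16.5% in ded1-ts and 15.7% in DED1-TS. The mRNA shares there were 15.4% in ded1-ts hcDBP1, 14.7% in ded1-ts and 19.1% in DED1-TS. In the third experiment the double mutant had 17.0% of footprints and 12.7% of mRNA, against 15.7% and 14.1% in the dbp1 deletion. The mRNA share was thus lower in both ded1-ts strains than in DED1-TS, whereas the footprint share was about equal in the 3.

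**Figure D3:**
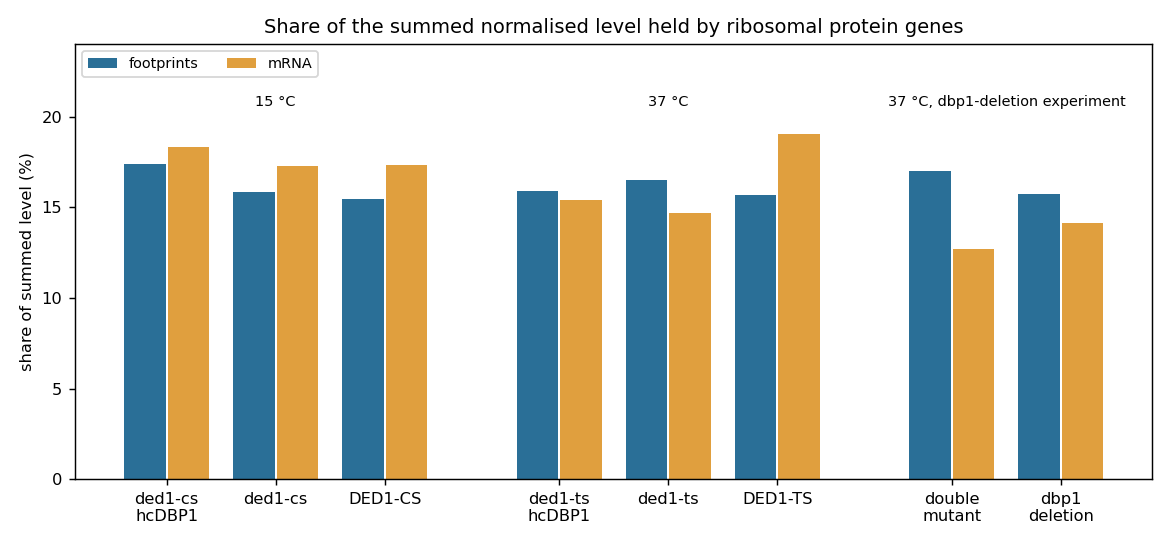
Share of the summed normalised level (vertical axis, percent) held by the 135 ribosomal protein genes in each strain (horizontal axis), for footprints (blue) and mRNA (orange). DED1-TS has the tallest mRNA bar at 19.1%, and the double mutant the shortest at 12.7%.

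Within each strain, the footprint level of a gene was also set against its own mRNA level and expressed relative to the median gene of that strain. At 15 °C the median member stood 1.00 log2 units above the median gene in ded1-cs hcDBP1, 1.20 in ded1-cs and 0.52 in DED1-CS. At 37 °C it stood 1.15 above in ded1-ts hcDBP1, 1.15 in ded1-ts and 0.63 in DED1-TS. The value was 1.39 in the double mutant and 0.95 in the dbp1 deletion. As a rank among all genes the members hardly moved at 15 °C, with the median member at percentile 79.4 in ded1-cs hcDBP1, 78.7 in ded1-cs and 78.3 in DED1-CS. At 37 °C it stood at percentile 88.8 in ded1-ts hcDBP1 and 89.1 in ded1-ts, against 79.1 in DED1-TS. In the other 37 °C experiment it stood at 91.4 in the double mutant and 88.3 in the dbp1 deletion, which carries no ded1-ts allele.

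Among proteins of the large subunit, RPL41A and RPL41B had the highest TE changes in both ded1 mutants. They encode the same very short peptide of the large subunit. Their footprint changes were the same to 2 decimals in every table, so the footprints of the copies cannot be told apart. Their mRNA changes differed somewhat, at 0.99 for RPL41A and 1.13 for RPL41B in the double mutant against the dbp1 deletion. The authors' pooled log2 footprint level of RPL41A was 14.20 in ded1-cs against 11.90 in DED1-CS, and 13.09 in ded1-ts against 11.43 in DED1-TS. Its mRNA level was 10.90 in ded1-cs against 11.60 in DED1-CS, and 11.10 in ded1-ts against 11.90 in DED1-TS. Footprints were thus higher and mRNA lower in both mutants. In the authors' deposited tables the TE change of RPL41A was 2.99 in ded1-cs, 3.85 in ded1-cs hcDBP1, 2.48 in ded1-ts and 2.24 in ded1-ts hcDBP1. It was -0.41 in the dbp1 deletion and -0.35 in the double mutant, where footprints and mRNA were both below the WT of the table.

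Other members high in TE at 15 °C were RPL39, another very short large-subunit protein at the exit tunnel, and RPL10, whose protein joins the large subunit late in its maturation. The authors' deposited table for ded1-cs gives TE changes of 1.37 for RPL39 and 1.22 for RPL10. RPL30, whose protein represses splicing and translation of its own transcript, had 1.04. In the small subunit RPS29B had 1.25, RPS25A 1.24 and RPS30A 1.17 in the authors' deposited table. RPS30A passed again, with RPS30B, in ded1-ts and ded1-ts hcDBP1, at 1.15 and 1.23 in the authors' deposited table for ded1-ts. At the threshold itself, RPL20B stood just inside at 1.01 and RPS30B just outside at 1.00 in ded1-cs, and RPS25A just inside at 1.00 and RPL36B just outside at 0.99 in ded1-ts. The subunits themselves did not part: the median TE change was 0.67 for both the large and the small subunit in ded1-cs, and 0.55 and 0.56 in ded1-ts.

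RPS12, a protein of the small subunit head, departed from the class at the low end. Its authors' pooled log2 footprint level was 13.28 in the double mutant and 13.71 in the dbp1 deletion. Against the WT of those tables its footprint change was -1.33 in the double mutant and -1.03 in the dbp1 deletion, in the authors' deposited tables. Its mRNA change in the dbp1 deletion was nearly the same as its footprint change, at -1.02. In the double mutant its TE change was -0.45. Its footprint level relative to mRNA was the lowest of all members in ded1-cs hcDBP1, at -0.80, and in DED1-CS, at -1.01. In ded1-cs RPS12 and RPP2B tied for the lowest value, at -0.80.

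The P stalk recruits elongation factors to the ribosome and is built on RPP0 with dimers of the acidic P1 and P2 proteins. In ded1-cs the authors' deposited table gives TE changes of 0.66 for RPP0, 0.41 for RPP1A, 1.03 for RPP1B, 0.59 for RPP2A and -0.70 for RPP2B. On the authors' scale RPP2B thus went the other way from the remaining stalk genes, with footprints at -0.57 and mRNA at 0.14. With equal column totals the median TE change of the 5 was -0.0077, so the others did not all stay above 0. RPP2B alone of the 5 then passed 2-fold, downward, where 35.2% of all genes did. In ded1-cs hcDBP1 the TE change of RPP2B was -0.11 in the authors' deposited table. At 37 °C in ded1-ts the values were 0.30 for RPP0, -0.03 for RPP1A, 0.02 for RPP1B, 0.47 for RPP2A and -0.36 for RPP2B in the authors' deposited table. In ded1-ts hcDBP1 all 5 lay between 0.46 and 0.59 in the authors' deposited table.

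Across the 58 pairs the copies mostly moved together. In ded1-cs the A copy had the higher TE change in 31 pairs and the B copy in 27, the median difference in size was 0.20, and 3 pairs differed by at least 1. In ded1-ts the counts were again 31 and 27, the median size was 0.13, and 1 pair differed by at least 1. In 6 pairs, RPL35 and RPL1 among them, the copies differed by less than 0.1 in all 12 footprint and mRNA changes of the 6 tables. How shared reads were assigned is not given in the sources used here, so such pairs, like RPL41, are uncertain as separate measurements.

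**Figure D4:**
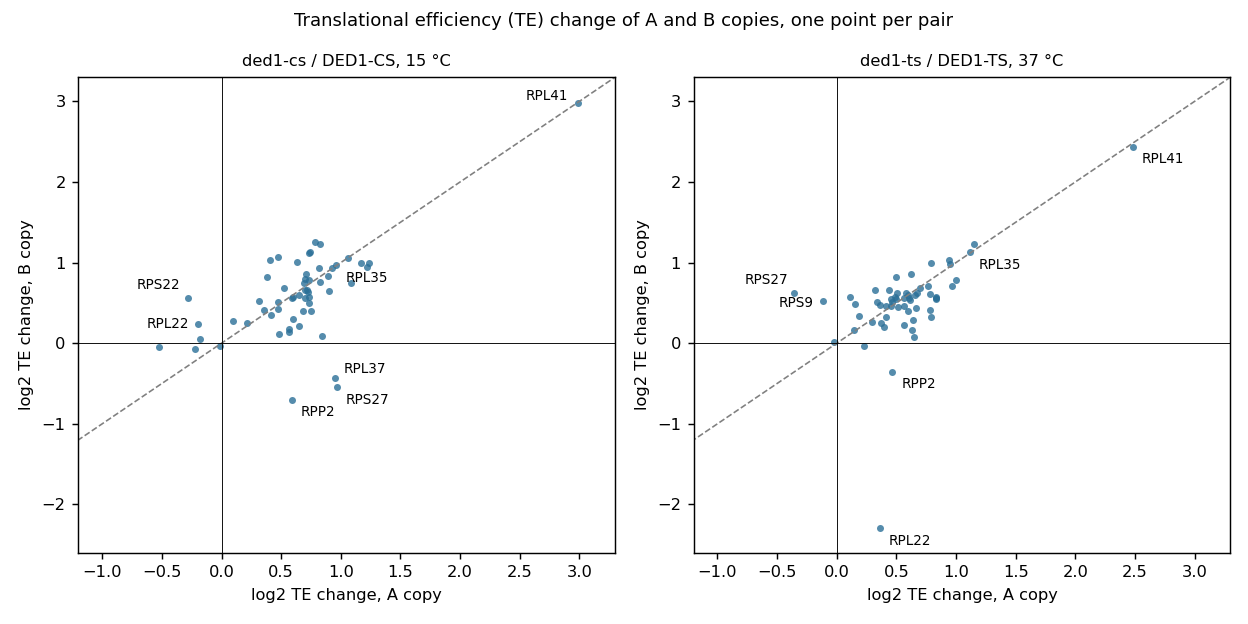
Log2 TE change of the A copy (horizontal axis) against that of the B copy (vertical axis) for the 58 pairs in ded1-cs and ded1-ts, each against its wild type, 1 point per pair, with a dashed line of equality. Most pairs lie near the line. RPP2, RPS27 and RPL37 lie below it in ded1-cs, and RPL22 lies farthest below it in ded1-ts, at 0.36 for A and -2.30 for B.

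The widest split was in RPL22, a non-essential large-subunit protein that is known to bind the intron of RPL22B. The authors' pooled log2 footprint level of RPL22B was 8.86 in ded1-ts against 11.12 in DED1-TS, while its mRNA level was 11.80 in both. In the other 37 °C table it was 10.05 in ded1-ts hcDBP1 against 11.22 in DED1-TS, and in the third experiment 7.05 in the double mutant against 9.76 in the dbp1 deletion. Footprints on RPL22B were thus low in every 37 °C strain carrying ded1-ts, and less so with hcDBP1. The TE change in the authors' deposited tables was -2.30 in ded1-ts, -0.96 in ded1-ts hcDBP1 and -1.47 in the double mutant, but 1.12 in the dbp1 deletion. The difference was 1.33 between ded1-ts hcDBP1 and ded1-ts, and -2.59 between the double mutant and the dbp1 deletion. RPL22A had TE changes of 0.36 in ded1-ts, 0.64 in ded1-ts hcDBP1, 0.51 in the double mutant and -0.15 in the dbp1 deletion in the authors' deposited tables. At 15 °C RPL22B was not low: its TE change was 0.24 in ded1-cs and 0.01 in ded1-cs hcDBP1 in the authors' deposited tables.

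RPS27, a zinc-binding small-subunit protein, had copies whose order turned with the strain. In the authors' deposited table for ded1-cs the TE change was 0.97 for RPS27A and -0.55 for RPS27B. The authors' deposited table for ded1-ts gives -0.36 for RPS27A and 0.62 for RPS27B. In the dbp1 deletion the order was that of ded1-cs, at 0.30 and -0.71, in the authors' deposited table.

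RPL37, another zinc-binding protein of the large subunit, split in the cold strains. The TE change in ded1-cs was 0.95 for RPL37A and -0.43 for RPL37B, and in ded1-ts 0.46 for both, in the authors' deposited tables. RPS7B exceeded RPS7A in ded1-cs, at 0.82 against 0.38, and was below it in ded1-ts, at 0.08 against 0.64, in the authors' deposited tables.

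**Figure D5:**
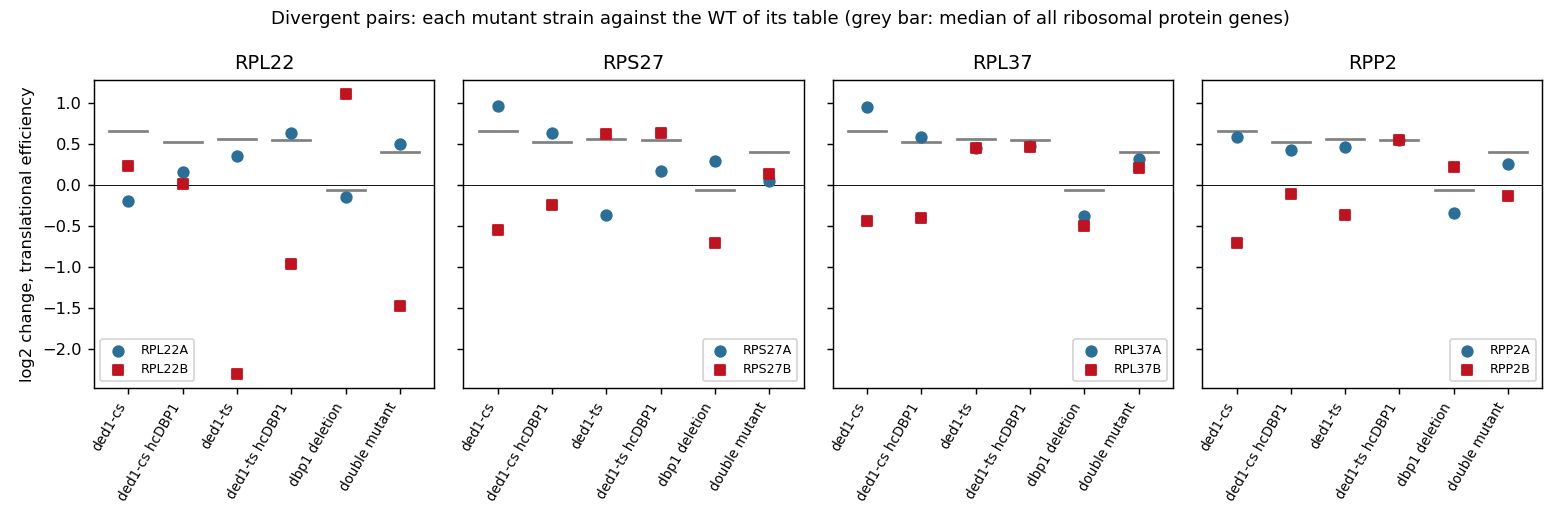
Log2 TE change (vertical axis) of the A copy (blue circles) and the B copy (red squares) of 4 pairs in the 6 mutant strains (horizontal axis), each against the WT of its table, with a grey bar at the median of all members. RPL22B reaches -2.30 in ded1-ts and 1.12 in the dbp1 deletion, and RPS27A and RPS27B exchange places between ded1-cs and ded1-ts.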

How the data were processed

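Ribosome footprints and mRNA were sequenced from 8 strains. Per the submitters' processing notes the tools were CASAVA 1.8, Bowtie2 2.6.0, TopHat2 2.1.0 and DESeq2, with genome build sacCer2. How DESeq2 was used is not given in the sources used here. The authors deposited 6 tables of log2 levels and log2 changes, pooled over libraries. The base of the logs was read from the values and headers. In total 4 value columns matched no sample and were not used.

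Symbols came from a RefSeq table for 5444 of 5446 reading frames. The members and gene lists were chosen with earlier results of these data known. The minimum level of 50 was applied to the mean log2 level over the mutant strains and their controls, a control being the mutant level minus the deposited change. A mean of linear levels over the level columns was run first. The log2 form replaced it after the gene counts of both had been seen, because it gave the gene counts of an earlier account of these tables. The linear form moved the share of all genes called by at most 0.70 percentage points and no count of members by over 1.5 times.

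Counts and medians were computed with pandas 2.3.3 and tested on simulated data. Named members were the extremes of each comparison, the most divergent pairs and a fixed set of genes. Alternatives covered scaling, threshold, minimum level, level columns and subsets of members.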

Additional observations from a re-analysis of the deposited data

How the results depend on the processing

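Under equal column totals the medians near 0 changed sign for footprints in ded1-ts and for footprints in ded1-ts hcDBP1 against ded1-ts, as did TE in ded1-cs hcDBP1 against ded1-cs. Centring turned the footprint median in ded1-cs hcDBP1 against ded1-cs to -0.043. The footprint median of 0.00 in the double mutant turned to 0.0043 without RPL41A and RPL41B, or without pairs that moved alike (chosen after seeing the data). Centring on the median of all genes gave a TE median of 0.40 (footprints 0.52) in ded1-cs hcDBP1, 0.45 in ded1-ts hcDBP1, 0.30 in the double mutant and 0.37 in the double mutant against the dbp1 deletion. With equal column totals, which shift every gene of a comparison by 1 constant, the median TE change was 0.070 in ded1-cs, 0.11 in ded1-cs hcDBP1, 0.035 in ded1-cs hcDBP1 against ded1-cs, 0.33 in ded1-ts hcDBP1, -0.16 in ded1-ts hcDBP1 against ded1-ts, and 0.29 in the double mutant against the dbp1 deletion. Under the same totals, footprint medians were 0.10 in ded1-cs, 0.24 in ded1-cs hcDBP1, 0.13 in ded1-cs hcDBP1 against ded1-cs, 0.11 in ded1-ts, -0.074 in ded1-ts hcDBP1 against ded1-ts, and 0.16 in the double mutant against the dbp1 deletion. Median mRNA was -0.37 in ded1-ts and -0.28 in ded1-ts hcDBP1. The cause of these shifts was not tested.

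Counts of members moved by over 1.5 times in 15 of 42 cases under equal column totals, 6 of 54 under centring and 38 of 54 at a 1.5-fold threshold. In ded1-cs centring left 12 members higher in TE. At a minimum level of 500, RPL22B left the double mutant comparisons and 4 counts moved. No paired analysis was possible because the tables hold pooled values, and leaving out a replicate was not run for the same reason. Equal totals and level-column differences were not run against the WT of the third experiment, nor the alternative without pairs of identical proteins.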

Other observations

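Genes that act with ribosomal proteins differed in their patterns. Of the listed regulators of ribosomal protein gene transcription, 8 of 14 analysed were at least 2-fold lower in TE in ded1-cs and 0 higher, where 21.9% and 16.4% of all genes were, with a median change of -1.61. They were FHL1, IFH1, SFP1, UTP22, SCH9, TOD6, DOT6 and STB3. With equal column totals, chosen for the lists after seeing the data, 10 of 14 were lower, where 35.2% of all genes were. In ded1-ts 4 of 15 were lower, where 6.38% of all genes were, with a median of -0.47. Of 16 ribosome-associated proteins, 9 were higher in TE in ded1-cs and 0 lower, where 16.4% and 21.9% of all genes were, with a median of 1.10. TMA10 and TMA16 were the 2 that passed upward with equal column totals, where 1.79% of all genes did. None of the 16 passed in TE in ded1-ts, where 2.85% of all genes did upward and 6.38% downward. Their median there was 0.33. Chaperones of nascent chains had medians near those of the ribosomal protein genes, at 0.82 in TE in ded1-cs. In ded1-ts their medians were -0.65 in mRNA and 0.44 in TE. The list was split in ded1-cs, where EGD1, EGD2, BTT1 and ZUO1 had TE changes of 0.82, 0.93, 1.21 and 1.32. SSB1, SSB2 and SSZ1 lay slightly below 0 there, at -0.05, -0.17 and -0.06. Of the 7 chaperones of nascent chains, BTT1 and ZUO1 were higher in TE in ded1-cs, where 16.4% of all genes were. With equal column totals 0 of 7 were higher, where 1.79% of all genes were. Dedicated chaperones of ribosomal proteins had a median of 0.64 in TE in ded1-cs, with 1 of 12 higher, BCP1, where 16.4% of all genes were. In footprints SYO1 and KAP123 of the 12 were lower, where 1023 of all 5076 genes were. Under equal totals 0 of the 12 were higher in TE and 3 lower, KAP123, RRB1 and SYO1, where 1.79% and 35.2% of all genes were.

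The 10 genes outside the class whose 12 footprint and mRNA changes correlated best with the members' median were EGD1, SFT1, PFY1, SOD1, SPC2, TEF1, ZUO1, FCY1, BNA7 and TEF2, with Pearson's r between 0.96 and 0.98. These 10 were picked as the highest of 4777 genes outside the class. Among the members themselves, each of which contributes to that median profile, the median r was 0.91, and RPL37B had the lowest, at -0.28. The highest values of many genes and a median over members are unlike measures. Tables of the same experiment share a wild type, so the 12 values are not independent.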
